A study of Mus musculus with 20 samples.

Results

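The AP-1 and immediate early transcription factors described here are 10 genes, taken from the count table by their mouse symbols. The set was chosen with earlier results of these data known. They are Jun, Junb and Jund (the Jun family), Fos, Fosb, Fosl1 and Fosl2 (the Fos family), Atf3, Egr1 and Klf6. All 10 were found among the 27911 genes of the table, and all 10 were among the 15467 genes with enough counts to be tested. AP-1 is a dimer of basic leucine zipper proteins, usually a Jun protein paired with a Fos or ATF protein, that binds a short palindromic DNA site. Immediate early genes are transcribed within minutes of serum, growth factor or stress signals without new protein synthesis, through factors such as SRF and its Elk partners, and their messages are mostly short-lived. In the growth plate Fosl2 and other AP-1 proteins are known to act in chondrocyte maturation, and c-Fos is known for cartilage and bone tumours in mice that express it in excess.

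RNA was sequenced from ATDC5 clones. ATDC5 is a chondrogenic mouse line that turns into cartilage-like cells in the presence of insulin. The Kmt2d-/- group had 2 clones with deletions on both alleles of the SET domain, the part of the histone methyltransferase Kmt2d that carries its catalytic activity, and the Kmt2d+/+ group had 3 clones. Each clone was harvested at day 7 of chondrogenic differentiation, in medium with serum, insulin, transferrin and selenium, ascorbic acid and beta-glycerophosphate, and at day 0, undifferentiated, before that medium was given. This gave 10 libraries of 1 clone each. Serum was present in the medium at both days, and the labels do not say how long after the last medium change the cells were lysed. Each clone is a distinct clonal line, so what is particular to a clone and what its genotype brings cannot be told apart within it, and 1 clone of each genotype carries the same clone label without a stated relation between them. The design asks how genotype and differentiation state alter the transcriptome, and the same comparisons were made here for these 10 genes.

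Libraries held 35792773 to 66237188 counts, and a single member took 0 to 19941 of them. Levels are given as CPM, counts scaled to a common library size with TMM factors. A gene passed a comparison when its adjusted p, from edgeR's quasi-likelihood test with Benjamini-Hochberg adjustment over all 15467 genes, was under 0.05. Kmt2d itself was read at 113 to 205 CPM in the Kmt2d-/- libraries and 173 to 211 CPM in the Kmt2d+/+ libraries (edgeR adjusted p = 0.363 at day 7 and 0.731 at day 0), and a count over the whole gene does not measure a deletion within it. The summed level of 8 chondrocyte markers was 23500 to 27670 CPM in Kmt2d-/- libraries and 299.8 to 1039 CPM in Kmt2d+/+ libraries at day 7, and 1016 to 2839 CPM in Kmt2d-/- libraries and 38.5 to 127 CPM in Kmt2d+/+ libraries at day 0. Most of that chondrocyte sum in Kmt2d-/- libraries was Col2a1. Its day 7 level was 20471 CPM in Kmt2d-/- clone 1 and 24450 CPM in clone 2. Day 0 values of Col2a1 were 2532.8 CPM in Kmt2d-/- clone 1 and 806.4 CPM in clone 2. Between genotypes 2 of the 8 passed at day 7 (Col2a1 and Matn3) and 1 at day 0 (Col2a1). None of the 8 log2 fold changes was below 0, with a median of 3.50 at day 7 and 2.53 at day 0. Of 8 mesenchymal markers 7 had a mean above 1 CPM in every group. Epithelial markers summed to at most 1.9 CPM and skeletal muscle markers to at most 0.441 CPM in any library, with Myog at 0 in all of them. Endothelial markers summed to 8.18 to 9.43 CPM in Kmt2d-/- and 11.6 to 13.9 CPM in Kmt2d+/+ libraries at day 7, without overlap, and to 11.5 to 12.2 CPM in Kmt2d-/- and 11.6 to 17.7 CPM in Kmt2d+/+ libraries at day 0. Immune cell markers summed to 0.616 to 2.09 CPM in Kmt2d-/- and 4.19 to 9.83 CPM in Kmt2d+/+ libraries at day 7, and to 0.676 to 0.917 CPM in Kmt2d-/- and 3.95 to 4.55 CPM in Kmt2d+/+ libraries at day 0, without overlap at either day. At most 1 of the 5 immune cell markers had a mean above 1 CPM in any group. In Kmt2d+/+ libraries of day 7 most of their sum was Cd74. Its level there was 3.49, 5.91 and 9.27 CPM, against 0.0962 and 1.25 CPM in Kmt2d-/- clones. For comparison, 19.8% of all tested genes were lower in Kmt2d-/- clones without overlap at day 7, and 18.3% at day 0. Neural and glial markers, at 11.8 to 85.3 CPM over all libraries, overlapped between genotypes at both days. The part of these markers in the genotype results was not tested. In bulk RNA fewer cells of a type and less RNA per cell cannot be told apart. The libraries come from clonal lines, and sums this low do not show that immune or endothelial cells were present.

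Promoter sequences of 5 members are shown because day 7 differed from day 0 in the same direction in all 5 clones, as described further on: Jun, Junb, Fosl2 and Klf6 were lower at day 7 and Fos was higher. By the same rule 18.8% of all tested genes were lower and 20.2% higher. Some of the changes were small, with day 7 at 0.963 times day 0 for Fosl2 in Kmt2d-/- clone 2. For Junb in Kmt2d+/+ clone 2 it was 0.924 times. Each runs 5′ to 3′ on the gene's strand from 250 bases before to 50 bases after the transcription start, from RefSeq on GRCm38.p6. The capitals mark the motif found in each: TGACATCA, an AP-1 site of the kind first described in the Jun promoter, in Jun and Klf6, GCGGGGGCG, an Egr binding site, in Fosl2, and the TATA box TATAAA in Fos and Junb.
Jun, minus strand of chr4:95052173-95052472: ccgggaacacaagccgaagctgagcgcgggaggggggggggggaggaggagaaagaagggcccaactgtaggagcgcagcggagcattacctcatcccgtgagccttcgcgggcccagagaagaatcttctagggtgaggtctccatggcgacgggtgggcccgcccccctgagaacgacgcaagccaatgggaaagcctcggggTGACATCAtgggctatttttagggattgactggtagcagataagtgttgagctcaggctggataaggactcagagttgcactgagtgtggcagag
Klf6, plus strand of chr13:5861239-5861538: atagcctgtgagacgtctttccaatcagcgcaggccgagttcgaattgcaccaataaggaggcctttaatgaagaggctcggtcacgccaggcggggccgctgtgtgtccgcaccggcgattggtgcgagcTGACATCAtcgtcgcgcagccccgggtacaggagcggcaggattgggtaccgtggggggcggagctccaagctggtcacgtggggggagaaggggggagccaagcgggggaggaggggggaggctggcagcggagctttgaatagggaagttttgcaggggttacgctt
Fosl2, plus strand of chr5:32136222-32136521: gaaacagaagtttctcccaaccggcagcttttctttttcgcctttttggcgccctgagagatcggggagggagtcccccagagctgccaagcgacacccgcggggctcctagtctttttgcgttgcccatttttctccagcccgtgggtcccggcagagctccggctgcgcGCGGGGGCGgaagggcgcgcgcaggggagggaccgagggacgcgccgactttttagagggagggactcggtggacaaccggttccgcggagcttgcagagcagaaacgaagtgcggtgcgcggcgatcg
Junb, minus strand of chr8:84978699-84978998: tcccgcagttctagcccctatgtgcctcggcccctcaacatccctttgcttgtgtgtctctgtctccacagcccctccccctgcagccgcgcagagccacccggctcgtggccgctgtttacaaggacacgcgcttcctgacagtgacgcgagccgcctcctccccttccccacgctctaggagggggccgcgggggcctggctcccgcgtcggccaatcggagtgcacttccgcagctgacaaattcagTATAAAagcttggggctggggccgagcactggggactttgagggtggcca
Fos, plus strand of chr12:85473640-85473939: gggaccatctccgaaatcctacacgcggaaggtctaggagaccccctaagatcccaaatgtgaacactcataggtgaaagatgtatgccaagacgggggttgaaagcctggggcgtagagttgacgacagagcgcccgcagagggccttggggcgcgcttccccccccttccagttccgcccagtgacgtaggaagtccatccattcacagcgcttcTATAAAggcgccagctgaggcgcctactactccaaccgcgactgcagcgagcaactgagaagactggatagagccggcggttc

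Junb and Jund both lie on chromosome 8 of GRCm38, at 84974484 to 84978718 and 70698949 to 70700616, and the other members each on a chromosome of their own, Atf3 on 1, Jun on 4, Fosl2 on 5, Fosb on 7, Fos on 12, Klf6 on 13, Egr1 on 18 and Fosl1 on 19. The table of promoters held 8 of the 10 members, all but Fosl1 and Egr1. Both strands were searched for 6 motifs, namely the AP-1 sites TGACTCA and TGACATCA, the cyclic AMP response element TGACGTCA, the Egr sites GCGTGGGCG and GCGGGGGCG, the CArG box bound by SRF, and TATAAA. TGACATCA began 45 bases before the start in Jun and 119 bases before it in Klf6, and 3.62% of 32851 promoter windows of 300 bases hold it. GCGGGGGCG began 79 bases before the start in Fosl2 and 50 bases before it in Fosb, with an Egr site in 3.47% of windows. TATAAA, held by 13.6% of windows, began 33 bases before the start of Fos and at the start of Junb. None of the 8 windows held TGACTCA (5.2% of windows), TGACGTCA (1.79%) or a CArG box (1.63%), and those of Jund and Atf3 held none of the 6. The windows follow RefSeq's starts, which need not be the ends of the gene spans in the annotation. That of Jund, at 70697489 to 70697788, lies wholly before the span given above, and that of Atf3, at 191183284 to 191183583, and that of Fosl2 lie inside the spans of those genes, 191170296 to 191218039 and 32135801 to 32157842. The span of Junb, on the minus strand, begins at 84978718, after RefSeq's start in its window of 84978699 to 84978998. TATAAA at RefSeq's start of Junb thus lies before that span. A match is a description of letters, and its absence says only that they are not in this window.

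Compared per kilobase of exon, the members covered a range of over 3 orders of magnitude, with Jund highest and Fosb lowest in every group. Jund, the Jun protein that growing cells express most steadily, averaged 126 ± 14.7 CPM per kilobase in Kmt2d-/- and 150.2 ± 25.7 in Kmt2d+/+ clones at day 7, and 122 ± 15.5 in Kmt2d-/- and 116 ± 11.6 in Kmt2d+/+ clones at day 0 (SD, n = 2 and 3 clones). Its clones did not overlap with those of the next gene in any group. Fosb stood at 0.082 ± 0.0419 CPM per kilobase in Kmt2d-/- and 0.0427 ± 0.037 in Kmt2d+/+ clones at day 7, and its clones lay below those of Fos, the next gene up, in every group. Between these ends, Fosl2, Junb and Klf6 formed the upper part of the order in 3 of the 4 groups, above Jun and Atf3. In Kmt2d+/+ clones at day 7 Klf6 stood below both. Egr1, Fosl1 and Fos formed the lower part in every group.

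The order of the upper part differed between groups. In Kmt2d-/- clones at day 7 Fosl2 was second with 31.1 ± 9.44 CPM per kilobase, then Klf6 with 22.4 ± 4.24 and Junb with 20.1 ± 0.447, and each of these overlapped with its neighbour in the order. In Kmt2d+/+ clones at day 7 Junb was second with 43.4 ± 13.2 CPM per kilobase, above the range of Fosl2 at 23.6 ± 0.582, and Fosl2, Atf3 (20.4 ± 3.64), Jun (17.5 ± 3.26) and Klf6 (17.1 ± 1.65) each overlapped with the next. At day 0 Fosl2 (43.4 ± 5.91) and Junb (43.2 ± 6.21) overlapped behind Jund in Kmt2d-/- clones, and Junb (60.1 ± 6.2), Klf6 (38.7 ± 14.5), Fosl2 (34.7 ± 3.79) and Jun (31.4 ± 2.05) each overlapped with the next in Kmt2d+/+ clones. With the longest transcript in place of all exons, 3 neighbours changed places: Junb (25.5 CPM per kilobase) stood above Klf6 (23.3) in Kmt2d-/- clones at day 7, Klf6 (17.8) above Jun (17.5) in Kmt2d+/+ clones at day 7, and Fosl2 (51.4) above Klf6 (40.3) in Kmt2d+/+ clones at day 0. Fosb then stood at 0.135 CPM per kilobase in Kmt2d-/- and 0.0705 in Kmt2d+/+ clones at day 7, still the lowest.

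**Figure D1:**
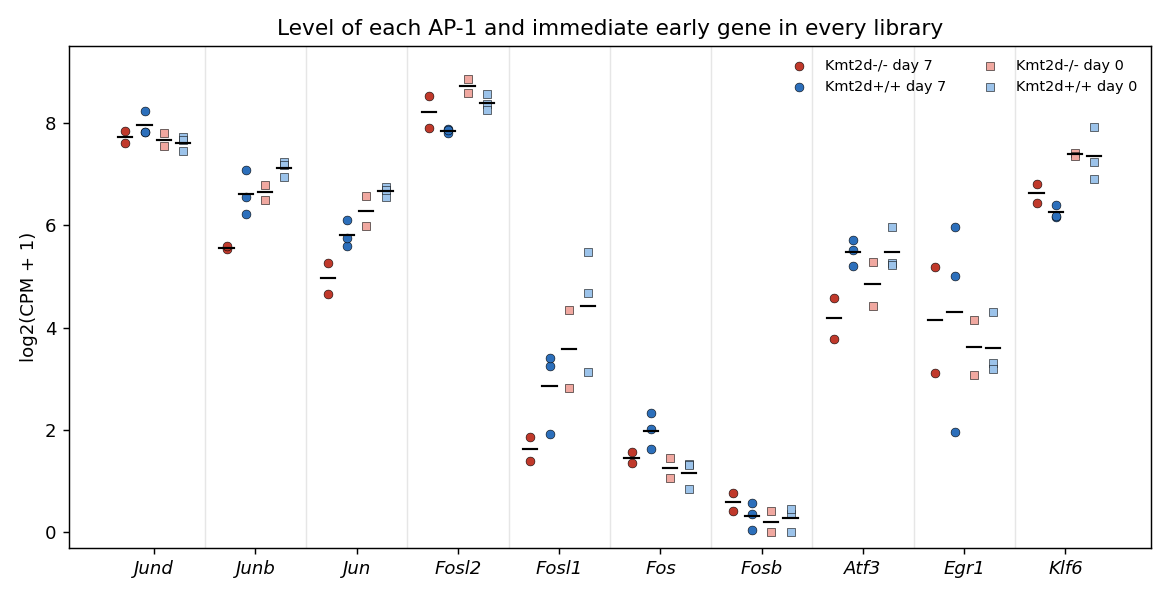
Level of each member in every library as log2(CPM + 1), with 1 point per clone and a bar at the group mean, for Kmt2d-/- and Kmt2d+/+ clones at day 7 and then at day 0. Junb at day 7 lies at 45.5 and 46.9 CPM in Kmt2d-/- clones and at 73.5 to 133 CPM in Kmt2d+/+ clones, and Egr1 spreads from 2.88 to 61.5 CPM among Kmt2d+/+ clones of day 7.

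At day 7 Jun, Junb and the stress-induced repressor Atf3 were read at lower levels in both Kmt2d-/- clones than in any Kmt2d+/+ clone, while Fosl2 and Klf6 were read at higher levels, but none of the 10 members passed the test. Over all genes 1.87% passed this comparison. Junb, a Jun protein with weaker activation and growth-restraining roles, had 45.5 and 46.9 CPM in Kmt2d-/- clones, against 73.5, 133 and 93.2 CPM in Kmt2d+/+ clones. Both Kmt2d-/- clones lay below all Kmt2d+/+ clones, and the log2 fold change was -1.11 ± 0.25 (SE, edgeR adjusted p = 0.0589). Junb shares 173 exonic bases with Prdx2 on the opposite strand, and Prdx2 held 103363 counts over all libraries. Jun, the strongest activator of the family, had 37.4 and 24.3 CPM in Kmt2d-/- clones, against 47.4, 53 and 67.5 CPM in Kmt2d+/+ clones. The groups again did not overlap, with a log2 fold change of -0.86 ± 0.26 (SE, edgeR adjusted p = 0.114). Jund had 192 and 227 CPM in Kmt2d-/- clones, against 300.1, 226 and 226 CPM in Kmt2d+/+ clones, with overlapping groups and a log2 fold change of -0.26 (edgeR adjusted p = 0.494).

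In the Fos family the signs were mixed. Fosl2, a Fos protein present in resting and differentiating cells, had 236 and 366 CPM in Kmt2d-/- clones, against 222, 233 and 229.5 CPM in Kmt2d+/+ clones, where the 3 clones were close together. Its log2 fold change was 0.40 ± 0.20 (SE, edgeR adjusted p = 0.308). Fosl1, a late-induced Fos protein of proliferating and invasive cells, had 2.65 and 1.61 CPM in Kmt2d-/- clones, against 2.78, 8.54 and 9.54 CPM in Kmt2d+/+ clones. The groups did not overlap, although Kmt2d-/- clone 1 and Kmt2d+/+ clone 1 were nearly equal, and the log2 fold change was -1.70 ± 0.82 (SE, edgeR adjusted p = 0.291). Fosl1 shares 1163 of its 2033 exonic bases with Ccdc85b on the opposite strand. Whether counting used strand is not given, so whether reads of the shared bases were told apart is not known. Fos, the prototype immediate early gene, had 1.54 and 1.96 CPM in Kmt2d-/- clones, against 2.07, 3.05 and 4.01 CPM in Kmt2d+/+ clones, with a log2 fold change of -0.80 ± 0.46 (SE, edgeR adjusted p = 0.377). Fosb, with 0.327 and 0.697 CPM in Kmt2d-/- clones and 0.28, 0.0295 and 0.491 CPM in Kmt2d+/+ clones, overlapped between genotypes on 2 to 38 counts a library (edgeR adjusted p = 0.782).

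Among the factors outside both families, Atf3 had 12.8 and 22.7 CPM in Kmt2d-/- clones, against 51.4, 35.8 and 44.8 CPM in Kmt2d+/+ clones. Every Kmt2d+/+ clone was above both Kmt2d-/- clones, and the log2 fold change was -1.31 ± 0.38 (SE, edgeR adjusted p = 0.106). Klf6, a zinc finger factor induced early after injury, had 85.1 and 111 CPM in Kmt2d-/- clones, against 70.4, 71.6 and 83.5 CPM in Kmt2d+/+ clones (log2 fold change 0.39 ± 0.28, SE, edgeR adjusted p = 0.485). Egr1, a zinc finger factor with one of the fastest serum responses, had 35.2 and 7.7 CPM in Kmt2d-/- clones, against 2.88, 61.5 and 31 CPM in Kmt2d+/+ clones. Its highest Kmt2d+/+ clone was 21.4 times its lowest, the widest spread of the 10 members in that group, and the log2 fold change was -0.57 ± 1.04 (SE, edgeR adjusted p = 0.822).

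Counted together at day 7, 5 of the 10 members (Jun, Junb, Atf3, Fosl1 and Fos) were lower in every Kmt2d-/- clone than in every Kmt2d+/+ clone, where 19.8% of all tested genes were. Fosl2 and Klf6 were higher without overlap, where 17.9% of all genes were. The median log2 fold change over the 10 members was -0.68, against -0.017 over all tested genes. At an unadjusted p under 0.05 edgeR gave 3 members, Jun, Junb and Atf3, where 19.9% of all genes were under it, and limma-voom passed 0 members after adjustment (3.45% of all genes). DESeq2 passed the same 3 members, Junb with an adjusted p of 0.00137, Atf3 with 0.0132 and Jun with 0.0273, where 10.3% of all genes passed, so the call on each of these depends on the tool.

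The level of neighbouring genes differed between the genotypes around some members, and the test was run again with that level as an offset. The offset takes a member to share the full level of its neighbours, which was not tested. For each member the median log2 ratio of the 50 expressed genes on each side to the Kmt2d+/+ mean was taken in every library. Around Fos this regional level at day 7 was 0.71 in both Kmt2d-/- clones and between -0.05 and 0.06 in Kmt2d+/+ clones. It was 0.29 and 0.66 around Klf6, 0.50 and 0.54 around Fosb, and 0.53 and 0.45 around Fosl1 in Kmt2d-/- clones. Around Fosl2 it was 0.27 and 0.25 in Kmt2d-/- clones, against -0.05, 0.15 and -0.09 in Kmt2d+/+ clones. Around Junb it was 0.07 and 0.09 in Kmt2d-/- clones, against -0.12, 0.27 and -0.14 in Kmt2d+/+ clones. With this level subtracted, the log2 fold change of Fos at day 7 was -1.52 ± 0.49 (SE, edgeR adjusted p = 0.15), that of Klf6 was -0.12 ± 0.24 (SE, edgeR adjusted p = 0.855), and that of Junb was -1.16 ± 0.20 (SE, edgeR adjusted p = 0.0337), so that Junb passed where 1.23% of all genes did. The sign of Klf6 was thus turned by the offset. At day 0 the offset gave -0.63 ± 0.48 for Fos and -0.55 ± 0.25 for Klf6 (log2 scale, SE, edgeR adjusted p = 0.499 and 0.255).

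**Figure D2:**
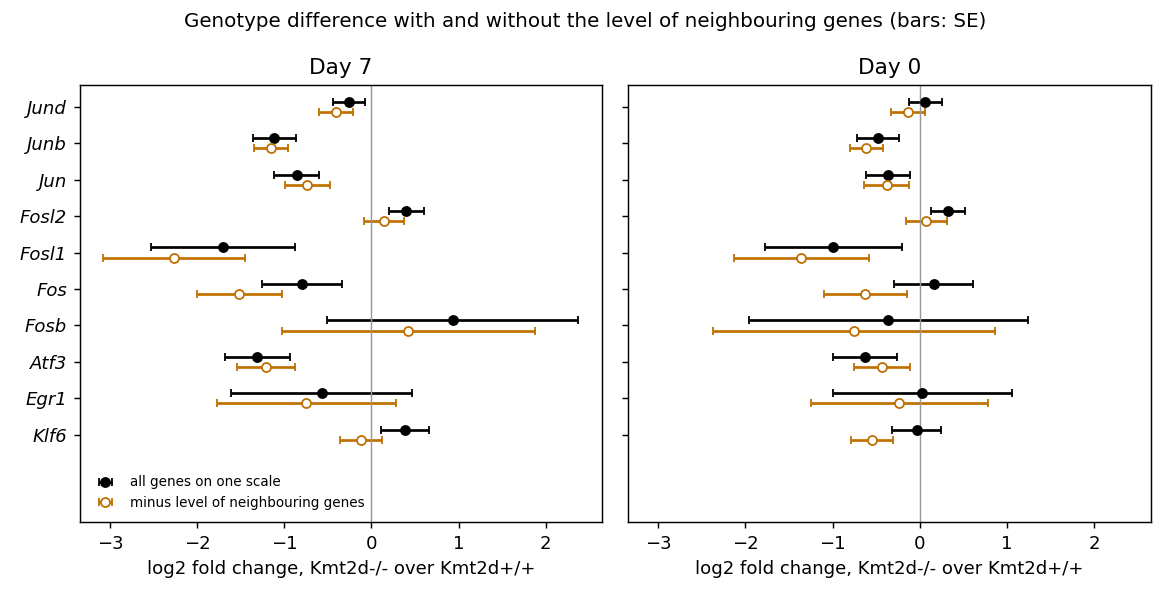
Log2 fold change of Kmt2d-/- over Kmt2d+/+ for each member at day 7 and at day 0, with bars of 1 SE, from the fit on 1 scale (filled) and after subtraction of the level of neighbouring genes (open). At day 7 the value after subtraction is -1.52 for Fos (-0.80 before it), -0.12 for Klf6 (0.39 before it) and -1.16 for Junb (-1.11 before it).

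At day 0, likewise, 0 of the 10 members passed, where 2.15% of all genes did. At an unadjusted p under 0.05 edgeR gave 0 members (20.2% of all genes), and DESeq2 (10.4% of all genes) and limma-voom (1.72%) passed 0 after adjustment. Junb was the only member whose Kmt2d-/- clones were all lower, where 18.3% of all genes were, with 109 and 89.3 CPM in Kmt2d-/- clones, against 149, 144 and 122 CPM in Kmt2d+/+ clones (-0.48 ± 0.24 on the log2 scale, SE, edgeR adjusted p = 0.308). Fosl2 was the only one whose Kmt2d-/- clones were all higher, where 18.6% of all genes were, with 460.5 and 379.7 CPM in Kmt2d-/- clones, against 375, 329 and 303 CPM in Kmt2d+/+ clones (0.32 ± 0.20 on the log2 scale, SE, edgeR adjusted p = 0.407). These 2 genes stood on the same side in both days, and the days share their clones. With the regional offset the log2 fold change of Fosl2 was 0.147 ± 0.232 at day 7 and 0.077 ± 0.232 at day 0 (SE, edgeR adjusted p = 0.796 and 0.887). That of Junb at day 0 was -0.615 ± 0.191 (SE, edgeR adjusted p = 0.126). With a clone left out, Fosl2 ran from 0.051 to 0.676 at day 7.

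The other members overlapped between genotypes at day 0. Jun had 93.5 and 62.4 CPM in Kmt2d-/- clones, against 106, 93.1 and 101.4 CPM in Kmt2d+/+ clones, where clone 1 of the mutants lay within the Kmt2d+/+ range. Atf3 had 37.8 and 20.5 CPM in Kmt2d-/- clones, against 61.1, 37.6 and 36.2 CPM in Kmt2d+/+ clones. Fosl1 had 6.04 and 19.4 CPM in Kmt2d-/- clones, against 24.5, 7.71 and 43.6 CPM in Kmt2d+/+ clones, and varied 3.21-fold within Kmt2d-/- and 5.66-fold within Kmt2d+/+ clones. Jund had 222 and 185 CPM in Kmt2d-/- clones, against 173, 210.0 and 200.4 CPM in Kmt2d+/+ clones, and Egr1 had 7.44 and 16.8 CPM in Kmt2d-/- clones, against 18.7, 8.87 and 8.09 CPM in Kmt2d+/+ clones. Klf6, Jund, Egr1, Fos and Fosb had log2 fold changes of -0.04, 0.07, 0.03, 0.16 and -0.36, all within their standard errors.

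From day 0 to day 7 Jun, Junb, Klf6 and Fosl2 were lower in each of the 5 clones and Fos was higher in each of them. In the test on group means, which does not pair a clone's days, only Klf6 in Kmt2d+/+ clones passed. With a term for each clone Jun passed in both genotypes, Junb in Kmt2d-/- and Klf6 in Kmt2d+/+ clones. With that term 5.57% of all genes passed in Kmt2d-/- and 18% in Kmt2d+/+ clones. Of all tested genes 18.8% were lower and 20.2% higher at day 7 in all 5 clones. Klf6 had 70.4, 71.6 and 83.5 CPM at day 7, against 242, 119 and 150.0 CPM at day 0 in the same Kmt2d+/+ clones 1, 2 and 3. It fell by 1.18 ± 0.25 on the log2 scale (SE, edgeR adjusted p = 0.0378), and it was 1 of 10 members to pass where 5.08% of all genes did. The call held in 10 of 15 alternatives, with adjusted p between 0.000497 and 0.246. It was lost without Kmt2d+/+ clone 1, whose day 0 level was the highest (log2 fold change -0.79, edgeR adjusted p = 0.187), without Kmt2d+/+ clone 3 (0.246), without Kmt2d-/- clone 1 (0.0669) or clone 2 (0.0681), and with only the Kmt2d+/+ libraries in the fit (0.0617). Over all genes 0 passed this comparison without Kmt2d+/+ clone 1 or without clone 3. In Kmt2d-/- clones Klf6 had 85.1 and 111 CPM at day 7, against 169 and 163 CPM at day 0 (-0.76 ± 0.31 on the log2 scale, SE, edgeR adjusted p = 0.291).

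Jun, too, was lower at day 7 in every clone. It had 37.4 and 24.3 CPM at day 7, against 93.5 and 62.4 CPM at day 0 in Kmt2d-/- clones 1 and 2, and 47.4, 53 and 67.5 CPM at day 7, against 106, 93.1 and 101.4 CPM at day 0 in Kmt2d+/+ clones. The ratio of day 7 to day 0 was 0.4 and 0.39 in Kmt2d-/- clones and 0.447, 0.569 and 0.666 in Kmt2d+/+ clones. Its log2 fold change was -1.34 ± 0.28 in Kmt2d-/- clones (SE, edgeR adjusted p = 0.0602) and -0.84 ± 0.22 in Kmt2d+/+ clones (SE, edgeR adjusted p = 0.063). With a term for each clone it passed in both, with an edgeR adjusted p of 0.0158 in Kmt2d-/- and 0.0165 in Kmt2d+/+ clones. Junb had 45.5 and 46.9 CPM at day 7, against 109 and 89.3 CPM at day 0 in Kmt2d-/- clones (log2 fold change -1.10 ± 0.27, SE, edgeR adjusted p = 0.0892, and 0.0498 with a term for each clone). In Kmt2d+/+ clones it had 73.5, 133 and 93.2 CPM at day 7, against 149, 144 and 122 CPM at day 0, and its log2 change within a clone ran from -1.02 in clone 1 to -0.11 in clone 2 (edgeR adjusted p = 0.219). Jund, by contrast, was lower at day 7 in 1 of the 5 clones, with log2 fold changes of 0.04 in Kmt2d-/- and 0.37 in Kmt2d+/+ clones (edgeR adjusted p = 0.958 and 0.213).

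In the Fos family Fos was the one gene above its day 0 level at day 7 in all 5 clones. It had 1.54 and 1.96 CPM at day 7, against 1.09 and 1.74 CPM at day 0 in Kmt2d-/- clones, and 2.07, 3.05 and 4.01 CPM at day 7, against 1.52, 0.789 and 1.5 CPM at day 0 in Kmt2d+/+ clones. The highest ratio of day 7 to day 0 was 3.87 in Kmt2d+/+ clone 2, and the log2 fold changes were 0.31 ± 0.50 in Kmt2d-/- and 1.26 ± 0.41 in Kmt2d+/+ clones (SE, edgeR adjusted p = 0.844 and 0.0997). Fosl2 had 236 and 366 CPM at day 7, against 460.5 and 379.7 CPM at day 0 in Kmt2d-/- clones, so that clone 2 kept nearly its day 0 level, and 222, 233 and 229.5 CPM at day 7, against 375, 329 and 303 CPM at day 0 in Kmt2d+/+ clones. Its log2 fold changes were -0.48 ± 0.22 in Kmt2d-/- and -0.56 ± 0.18 in Kmt2d+/+ clones (SE, edgeR adjusted p = 0.362 and 0.101). Fosl1 was lower at day 7 in 4 of 5 clones, with 2.65 and 1.61 CPM at day 7, against 6.04 and 19.4 CPM at day 0 in Kmt2d-/- clones, and 2.78, 8.54 and 9.54 CPM at day 7, against 24.5, 7.71 and 43.6 CPM at day 0 in Kmt2d+/+ clones. Kmt2d+/+ clone 2 was the exception at 1.11 times its day 0 level, and the log2 fold changes of -2.57 ± 0.90 in Kmt2d-/- and -1.86 ± 0.71 in Kmt2d+/+ clones did not pass (SE, edgeR adjusted p = 0.218 and 0.148). The value in Kmt2d-/- clones was -3.59 without clone 1 and -1.19 without clone 2. Fosb was at 0 in Kmt2d-/- clone 2 and Kmt2d+/+ clone 3 at day 0, where 3 counts would have been 0.0725 and 0.0626 CPM, and reached at most 0.697 CPM in any library.

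Atf3 and Egr1 had no common direction. Atf3 at day 7 was 0.338 times its day 0 level in Kmt2d-/- clone 1 and 1.11 times in clone 2, and 0.841, 0.952 and 1.23 times in Kmt2d+/+ clones. Egr1 was 4.73 times its day 0 level in Kmt2d-/- clone 1 and 0.46 times in clone 2, and 0.154, 6.93 and 3.83 times in Kmt2d+/+ clones 1, 2 and 3. Each genotype thus held a clone with a large increase and a clone with a decrease of Egr1.

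**Figure D3:**
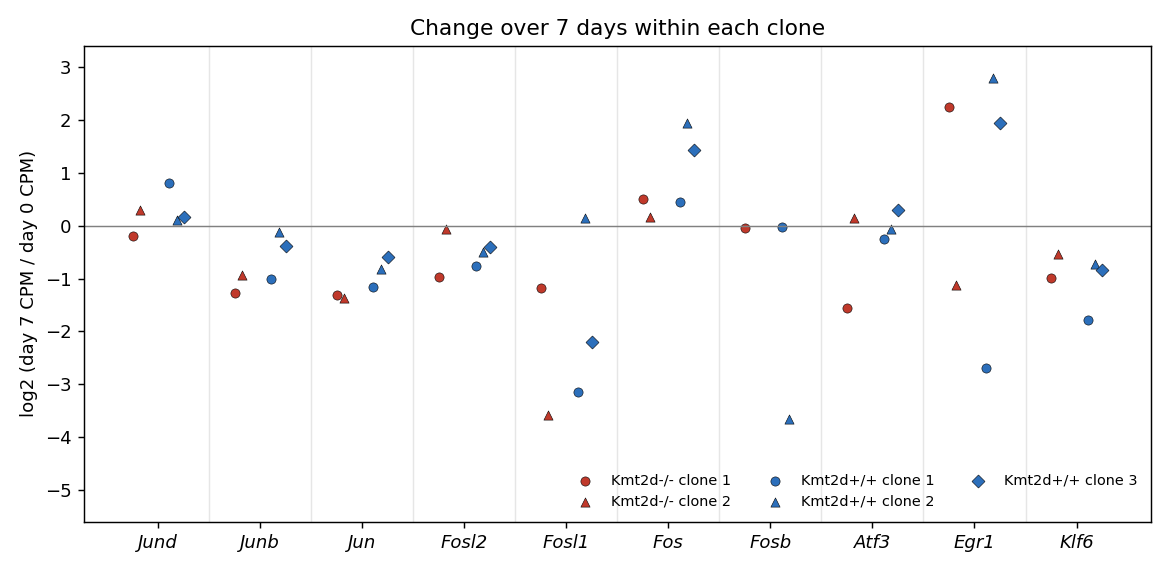
Log2 ratio of day 7 to day 0 CPM of each member within each clone, with Kmt2d-/- clones in red and Kmt2d+/+ clones in blue (Fosb is not drawn in the 2 clones where it was at 0 at day 0). All 5 clones lie below 0 for Jun, Junb, Fosl2 and Klf6 and above 0 for Fos, while Egr1 runs from -2.70 to 2.79.

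By count, 0 of the 10 members passed between the days in Kmt2d-/- clones, where 1.27% of all genes did. At an unadjusted p under 0.05 edgeR gave 4 members there, Jun, Junb, Fosl1 and Klf6 (14.8% of all genes), limma-voom passed 0 (1.16% of all genes) and DESeq2 passed Jun, Junb and Fosl1 (6.3% of all genes). In Kmt2d+/+ clones 5 members were at an unadjusted edgeR p under 0.05 (24.7% of all genes), and DESeq2 passed the same 5, Fos, Fosl1, Fosl2, Jun and Klf6 (14.7% of all genes). The term for each clone passed Jun and Junb in Kmt2d-/- clones, where 5.57% of all genes passed, and Jun and Klf6 in Kmt2d+/+ clones, where 18% did. The difference of the day effects between the genotypes passed for 0 genes in edgeR, with 568 genes (3.67%) and 0 members at an unadjusted p under 0.05. DESeq2 passed 26 genes (0.168%), none of them a member, and limma-voom passed 0. For the members this difference lay between -0.96 ± 0.64 for Fos and 1.30 ± 2.17 for Fosb (log2 scale, SE), and it was -0.64 ± 0.34 for Junb and -0.50 ± 0.35 for Jun (SE). Heat shock and handling genes, 8 in all, summed to 1815 to 2117 CPM at day 7 and 2388 to 2573 CPM at day 0 in Kmt2d-/- clones, and to 1536 to 1926 CPM at day 7 and 2106 to 2672 CPM at day 0 in Kmt2d+/+ clones, and their part in the day results was not tested.

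Since AP-1 proteins compete for dimer partners, the make-up of each family was described by the share of each gene in the family's summed CPM per kilobase. Fosl2 made up 94 ± 2.27% of the Fos family in Kmt2d-/- and 83.6 ± 6.47% in Kmt2d+/+ clones at day 7 (SD, n = 2 and 3), without overlap. Fosl1 made up 3.47 ± 2.07% in Kmt2d-/- and 11.7 ± 5.5% in Kmt2d+/+ clones, and Fos made up 2.29 ± 0.257% in Kmt2d-/- and 4.51 ± 1.08% in Kmt2d+/+ clones, both without overlap. In the Jun family at day 7 Junb held 12.9 ± 0.729% in Kmt2d-/- and 20.7 ± 6.74% in Kmt2d+/+ clones, without overlap. Jund held 80.7 ± 3.1% in Kmt2d-/- and 70.9 ± 7.65% in Kmt2d+/+ clones, with overlap. At day 0 Junb held 22.8 ± 0.158% in Kmt2d-/- and 28.9 ± 3.11% in Kmt2d+/+ clones, and Jund held 64.4 ± 1.55% in Kmt2d-/- and 55.9 ± 3.96% in Kmt2d+/+ clones, both without overlap. The shares of a family are tied, since a higher share of 1 gene leaves less for the others. With 2 against 3 clones the two-sided exact permutation test cannot go below 0.2, and none of the 14 shares tested passed (exact p between 0.2 and 1, Benjamini-Hochberg adjusted between 0.467 and 1). The summed level of the Jun family was 146.7 and 164.0 CPM per kilobase in Kmt2d-/- clones, against 226.7, 210.0 and 197.0 in Kmt2d+/+ clones at day 7, and that of the Fos family was 26.4 and 39.5 in Kmt2d-/- clones, against 25.2, 29.6 and 30.2 in Kmt2d+/+ clones. Exons that overlap an opposite-strand gene enter these sums and shares. They are 1163 bases of Fosl1 with Ccdc85b, 173 of Junb with Prdx2, 232 of Jun with Junos and 877 of Jund with Gm11175.

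**Figure D4:**
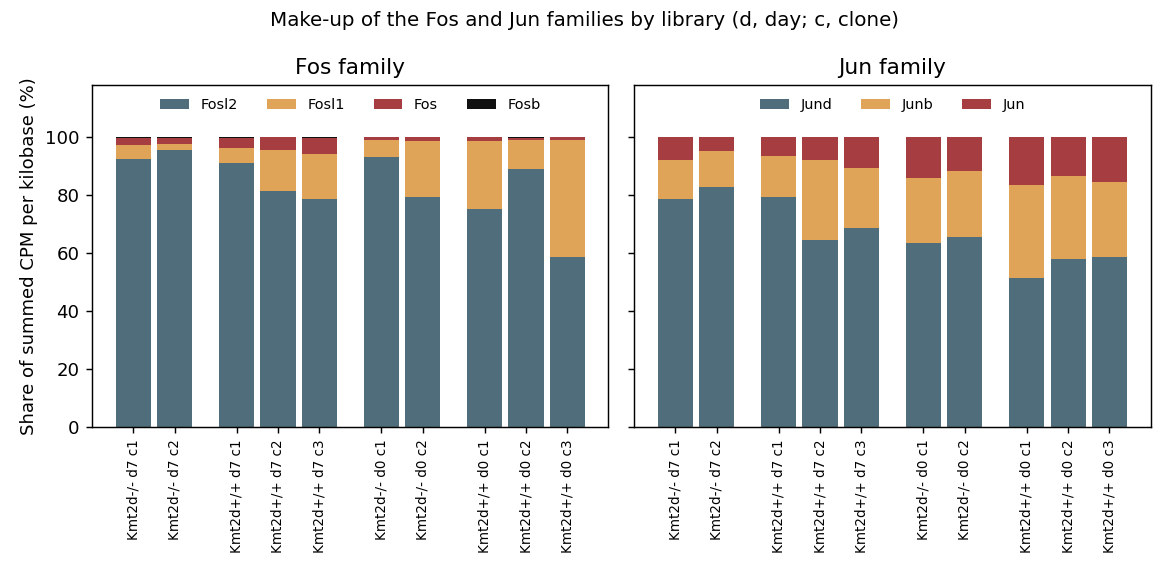
Share of each gene in the summed CPM per kilobase of the Fos family and of the Jun family, in percent, with 1 bar per library (d, day; c, clone). Fosl2 fills most of every Fos family bar and Jund over 50% of every Jun family bar, and Junb takes 12.9% of the Jun family on average in Kmt2d-/- clones at day 7, against 20.7% in Kmt2d+/+ clones.

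Over the 10 libraries the members that followed each other most closely, by Pearson correlation of log2(CPM + 1), were Jun with Junb (r = 0.873), Fosl2 with Klf6 (r = 0.853) and Fosl1 with Jun (r = 0.778). The lowest value was that of Jund with Klf6 (r = -0.692). The 10 libraries come from 5 clones and share the day difference, so these values are descriptions without a test. Among all other tested genes the patterns most like that of Jun were those of Ago2 (r = 0.986), Rnf8 and Wnk1, those most like Junb were Cul4b (r = 0.987), Rab39b and Gfod1, and those most like Jund were Spag6 (r = 0.952), Syne4 and Hagh. For Fosl2 they were Gadd45g (r = 0.914) and Ddhd2, for Fosl1 Zfp638 (r = 0.947), Uba6 and Tulp1, and for Fos Hsdl2 (r = 0.947), Mitd1 and Smg6. For Klf6 they were Tmsb4x (r = 0.959), Prdm4 and Fam83c, and for Atf3 Rp2 (r = 0.94), Rasal2 and Adamts6. Egr1 was most like Hmgcll1 (r = 0.883), Acot4 and Apobec3, and Fosb most like Pbld2 (r = 0.893), Ndrg3 and 5330417C22Rik. Spag6, Syne4, Tulp1, Fam83c, Hmgcll1, Pbld2 and 5330417C22Rik reached at most 1.32 CPM and Fosb itself at most 0.697 CPM, and a correlation at such levels rests on few counts. Each r with a gene outside the members was picked as the highest over all tested genes, so a high value comes with the choice.

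The rest of the pathway was read from lists of related genes. Of 9 tested basic leucine zipper partners outside the members (Batf, ATF and Maf proteins), 0 passed between genotypes at either day. Over all genes 1.87% passed at day 7 and 2.15% at day 0. Maff, a small Maf protein without an activation domain, fell between the days in Kmt2d+/+ clones, where 5.08% of all genes passed. It had 7 ± 0.948 CPM at day 7 and 17 ± 3.74 CPM at day 0 (SD, n = 3, edgeR adjusted p = 0.0439). Of 25 other immediate early genes 2 fell in Kmt2d-/- clones at day 7 and 0 rose, where 0.97% of all genes fell and 0.905% rose. Their log2 fold changes were below 0 for 17 of 25, with a median of -0.72, against -0.017 over all genes. At day 0 their median was -0.23, against 0.006 over all genes. The day 7 median was -1.24 for MAP kinase feedback inhibitors, -0.87 for AP-1 targets, -0.13 for upstream factors and -0.06 for the leucine zipper partners. It was 0.001 for heat shock and handling genes, 0.03 for AP-1 partners and repressors and 0.25 for other Krueppel-like factors. Plk2, a serum-induced kinase, averaged 18.4 ± 2.18 CPM in Kmt2d-/- and 85.3 ± 9.5 CPM in Kmt2d+/+ clones at day 7 (SD, edgeR adjusted p = 0.0355). Csrnp1, a nuclear protein induced by Axin, averaged 4 ± 1.19 CPM in Kmt2d-/- and 13.4 ± 1.98 CPM in Kmt2d+/+ clones (SD, edgeR adjusted p = 0.039). At day 0 Plk2 fell by 2.69 and Nr4a3, an orphan nuclear receptor, rose by 2.04 on the log2 scale in Kmt2d-/- clones (edgeR adjusted p = 0.023 and 0.0251), and over all genes 0.976% fell and 1.17% rose at that day.

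Between the days 2 of these 25 immediate early genes fell and 0 rose in Kmt2d-/- clones, and 4 fell and 1 rose in Kmt2d+/+ clones. Over all genes 0.595% fell and 0.672% rose in Kmt2d-/- clones, and 2.04% fell and 3.05% rose in Kmt2d+/+ clones. Ccn2, a matricellular protein induced by serum, averaged 25.5 ± 2.65 CPM at day 7 and 634.6 ± 527 CPM at day 0 in Kmt2d-/- clones (SD, edgeR adjusted p = 0.0207). In Kmt2d+/+ clones it averaged 92.2 ± 33.5 CPM at day 7 and 2469 ± 239.9 CPM at day 0 (SD, edgeR adjusted p = 0.00741). Plk2 fell by 2.54 in Kmt2d-/- and by 3.01 in Kmt2d+/+ clones on the log2 scale (edgeR adjusted p = 0.0349 and 0.00864). Ccn1, a relative of Ccn2, fell by 1.75 and Nr4a3 rose by 1.37 in Kmt2d+/+ clones (log2 scale, edgeR adjusted p = 0.0334 and 0.0392). Neither passed in Kmt2d-/- clones, where Ccn1 had 57.4 and 154 CPM at day 7, against 513 and 303 CPM at day 0. Nr4a3 had 35.1 and 41.2 CPM at day 7 there, against 38 and 24.1 CPM at day 0.

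Among 19 upstream kinases and serum response factors 0 passed between genotypes at either day, where 1.87% of all genes did at day 7 and 2.15% at day 0. Srf, the factor that binds the CArG box of immediate early promoters, fell between the days in both genotypes, with 73.6 ± 9.94 CPM at day 7 and 179 ± 34 CPM at day 0 in Kmt2d-/- clones, and 97.3 ± 15.1 CPM at day 7 and 237 ± 30.9 CPM at day 0 in Kmt2d+/+ clones (SD, edgeR adjusted p = 0.0399 and 0.0147). Its coactivator Mrtfa fell by 1.35 in Kmt2d-/- clones and its partner Elk1 rose by 0.52 in Kmt2d+/+ clones (log2 scale, edgeR adjusted p = 0.017 and 0.0416). Neither passed in the other genotype. Mrtfa had 117, 131 and 116 CPM at day 7, against 161, 184 and 165 CPM at day 0 in Kmt2d+/+ clones. Elk1 had 69.3 and 77.1 CPM at day 7, against 59.7 and 63.7 CPM at day 0 in Kmt2d-/- clones. Of 11 feedback inhibitors of MAP kinase signalling 1, the JNK phosphatase Dusp16, fell in Kmt2d-/- clones at day 7, with 27.4 ± 6.49 CPM in Kmt2d-/- and 65 ± 5.01 CPM in Kmt2d+/+ clones (SD, edgeR adjusted p = 0.0322). Log2 fold changes were below 0 for 10 of the 11, with a median of -1.24, against -0.017 over all genes, of which 0.97% fell. At day 0, where 0 of the 11 passed and 2.15% of all genes did, the median was -0.61, against 0.006 over all genes. Between the days Spry1, a Sprouty inhibitor of receptor signalling, rose by 2.58 in Kmt2d-/- and 2.67 in Kmt2d+/+ clones, and Dusp10 fell by 1.87 in Kmt2d-/- clones (log2 scale, edgeR adjusted p = 0.0476, 0.0176 and 0.0475). In Kmt2d+/+ clones Dusp10 did not pass, with 17.1, 15.6 and 21.2 CPM at day 7, against 45.7, 25.8 and 45.3 CPM at day 0.

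Of 17 tested target genes of AP-1, 1 fell in Kmt2d-/- clones at each day, and 0 rose. Over all genes 0.97% fell and 0.905% rose at day 7, and 0.976% fell and 1.17% rose at day 0. The gene that fell was Ccnd1, which encodes cyclin D1 and is a target of Jun in several cell types. Ccnd1 had 14.6 and 10 CPM in Kmt2d-/- clones, against 130.2, 182 and 168 CPM in Kmt2d+/+ clones at day 7, and 23.3 and 20.2 CPM in Kmt2d-/- clones, against 226, 137 and 278 CPM in Kmt2d+/+ clones at day 0. The log2 fold changes were -3.70 ± 0.36 at day 7 and -3.29 ± 0.35 at day 0 (SE, edgeR adjusted p = 0.0067 and 0.00691). The other 16 did not pass between genotypes at either day. In Kmt2d+/+ clones Hbegf, an EGF receptor ligand, fell between the days by 2.25 (log2 scale, edgeR adjusted p = 0.0472), and in Kmt2d-/- clones 0 of 17 passed. Hbegf had 1.87 and 2.66 CPM at day 7, against 19.3 and 5.5 CPM at day 0 in Kmt2d-/- clones. Between the days 5.08% of all genes passed in Kmt2d+/+ and 1.27% in Kmt2d-/- clones, which are the shares for the lists below too. Among 12 partners and repressors of AP-1 0 passed between genotypes, where 1.87% of all genes did at day 7 and 2.15% at day 0. In Kmt2d+/+ clones Runx2 rose by 0.96 and Tead1 fell by 0.78 between the days (log2 scale, edgeR adjusted p = 0.0382 and 0.0486). Of 13 other Krueppel-like factors Klf16 alone passed a comparison, falling by 0.90 between the days in Kmt2d+/+ clones (log2 scale, edgeR adjusted p = 0.0278). Of the 8 heat shock and handling genes Hsph1 fell by 1.39 between the days in Kmt2d-/- clones, and Hsp90aa1 and Hsph1 fell by 0.80 and 0.91 in Kmt2d+/+ clones (log2 scale, edgeR adjusted p = 0.041, 0.0265 and 0.0398).

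A call between the days in 1 genotype alone does not show a difference between the genotypes. The difference of the day effects passed for 0 genes in edgeR. The calls outside the members were read again with 1 clone left out at a time. Without a Kmt2d-/- clone that group held 1 clone, so only the size of the change is read there. Without a Kmt2d+/+ clone the number passing over all genes moved as well, so a lost call does not show dependence on that clone. Of the 4 named genes that passed between genotypes at day 7 (Plk2, Csrnp1, Dusp16 and Ccnd1), 2, 2 and 1 still passed without Kmt2d+/+ clones 1, 2 and 3. Over all genes 32, 272 and 10 then passed, against 290 with every clone. Of the 3 at day 0, 0, 3 and 0 still passed, where 16, 912 and 10 of all genes did, against 332. Of the 7 between the days in Kmt2d-/- clones, 5, 5 and 0 still passed, where 90, 183 and 0 of all genes did, against 196. Of the 16 in Kmt2d+/+ clones, Klf6 included, 0, 11 and 0 still passed, where 0, 862 and 0 of all genes did, against 786. The fold itself, before the log, moved by more than 1.5 times for 2 of these genes, both between the days in Kmt2d-/- clones. The log2 fold change of Ccn2 was -3.48 without clone 1 (-4.64 with all clones), and that of Dusp10 was -2.46 without clone 2 (-1.87 with all clones).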

How the data were processed

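Poly(A) RNA of 2 Kmt2d-/- and 3 Kmt2d+/+ clones, harvested at day 7 and at day 0, was sequenced on 2 flow cells per library. Each clone is a distinct clonal line and counts as 1 biological replicate, per the labels' design text, so p-values measure the spread between clones. The deposited table held gene-level estimated counts, not normalized, of 27911 Ensembl genes in 20 columns. The tools Salmon, edgeR, limma and DESeq2 and the build GRCm38 were used by the authors, per the submitters' processing notes. Tool versions, the transcript annotation and any use of strand: not given in the sources used here. An estimated count shares reads out among transcripts that resemble each other. Without use of strand, reads from the shared bases of overlapping or antisense genes may therefore not be told apart.

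The 2 runs of a library (r = 0.9964 to 0.9981 across genes) were summed and rounded to whole numbers, giving 35792773 to 66237188 counts, in which 3 counts correspond to 0.0453 to 0.0838 CPM. Symbols and coordinates were matched for 27500 of the identifiers on GRCm38, 2 older symbols of the lists by synonym included. All 10 libraries entered one edgeR 4.0.16 model (R 4.3.3) of 4 group means. It used TMM scaling, filterByExpr, which kept 15467 genes, and the quasi-likelihood F test (6 residual degrees of freedom) at a common biological coefficient of variation of 0.385. A standard error is the log2 fold change over the square root of F. The threshold was an adjusted p (Benjamini-Hochberg) under 0.05. The code was tested on simulated data. Levels between genes were compared as CPM per kilobase of exon union.

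The 2 libraries of a clone share its cell line, and their deviations from the group means correlated with r = 0.363 to 0.571, so the days are paired by clone. The fit with a term for each clone (3 residual degrees of freedom) was an alternative. Others were DESeq2 1.42.0, limma-voom (limma 3.58.1), other scalings and filters, each run alone, only the groups compared, an estimated correlation of a clone's libraries (0.49), a regional offset, and leaving out both libraries of each clone in turn.

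The members and lists were chosen with earlier results of these data known. All members were named in each comparison. Of each other list up to 4 passing genes with the smallest p were named, or else its most abundant gene, of which those that passed no comparison are not detailed. For likeness the 3 genes with the highest correlation were named. Some genes that the naming rule or the likeness rule selected are not reported here.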

Additional observations from a re-analysis of the deposited data

How the results depend on the processing

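Of 750 values of the members under alternative settings 689 kept their direction and their side of the threshold, 17 passed where the reported value did not, 5 no longer passed (all Klf6 in Kmt2d+/+ clones) and 39 changed sign, none of them in a comparison that passed. The cause of these changes was not tested. Fosb rests on 0 to 38 and Fos on 34 to 294 counts a library, and what size of difference such depths can show was not tested.

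The number of members passing was 3 at day 7 between genotypes, 3 between the days in Kmt2d-/- and 5 between the days in Kmt2d+/+ clones with DESeq2. With the regional offset 1 passed at day 7, and with flow-cell run 2 alone 1 (Jun) passed between the days in Kmt2d-/- clones. With the replicate block, in which each clone has its own term, 2 members passed between the days in Kmt2d-/- and 2 in Kmt2d+/+ clones, with 862 and 2789 genes in all, and 0 genes for the difference of the day effects. It ended no call of a named gene. Leaving out 1 clone gave 0 to 1 members passing in Kmt2d+/+ clones. In 2 settings with 1 member passing there, only the groups compared and without Kmt2d-/- clone 1, it was Jun and not Klf6.

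Over all genes at day 7, 290 passed between genotypes, 1593 with DESeq2, 533 with limma-voom, 442 with the clone correlation, 191 with the regional offset, 184 with run 2 alone and 55 with only the groups compared, and 10 (without Kmt2d+/+ clone 3) to 272 with a clone left out. At day 0, 332 passed, 1601 with DESeq2, 199 with the regional offset, 193 with the clone correlation and 9 with only the groups compared, and 10 (without Kmt2d+/+ clone 3) to 912 (without Kmt2d+/+ clone 2) with a clone left out. Between the days 196 passed in Kmt2d-/- clones, 974 with DESeq2 and 0 with only the groups compared, and 0 (without Kmt2d-/- clone 1 or Kmt2d+/+ clone 3) to 183 with a clone left out. In Kmt2d+/+ clones 786 passed, 2266 with DESeq2, and 0 (without Kmt2d+/+ clone 1 or 3) to 862 with a clone left out. For the difference of the day effects DESeq2 gave 26 genes.

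Signs turned between genotypes as follows (log2 fold changes). With the regional offset Klf6 was -0.12 at day 7, and Fos -0.63, Jund -0.13 and Egr1 -0.24 at day 0. At day 0 Egr1 was -0.001 with DESeq2 and -0.001 with run 1 alone, Fosb was 1.25 with run 2 alone, and Klf6 was 0.033 with limma-voom, 0.022 with run 2 alone and 0.032 with the clone correlation. With a clone left out Egr1 ran from -2.05 to 0.34 at day 7, and at day 0 Fos ran from -0.22 to 0.46, Fosb from -6.55 to 0.64, Jund from -0.07 to 0.19, Egr1 from -0.67 to 0.51 and Klf6 from -0.24 to 0.30.

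Between the days in Kmt2d-/- clones run 2 alone gave -0.072 for Fos and -0.38 for Fosb, and leaving out a clone gave -0.052 to 8.21 for Fosb, -0.21 to 0.29 for Jund, -1.57 to 0.15 for Atf3 and -1.13 to 2.24 for Egr1. In Kmt2d+/+ clones Atf3 was 0.004 with limma-voom and -0.20 to 0.13 with a clone left out, and Fosb -1.10 to 1.499. For the difference of the day effects Fosb was -1.21 with run 2 alone, and leaving out a clone gave -0.35 to 7.92 for Fosb, -1.73 to 0.67 for Fosl1, -0.41 to 0.50 for Fosl2, -1.54 to 0.18 for Atf3 and -2.55 to 0.82 for Egr1.

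On shares of CPM in place of CPM per kilobase, the day 7 differences of Kmt2d-/- minus Kmt2d+/+ clones were -0.684 percentage points for Fos (-2.22 per kilobase), -2.11 for Fosl1 (-8.25) and 2.74 for Fosl2 (10.4), with the same signs. Per kilobase of the longest transcript Fosl2 stood at 34.9 CPM in Kmt2d+/+ clones at day 7, against 23.6 over all exons.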
